A study of Mus musculus with 4 samples.

Results

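The SOCS family comprises 8 genes, *Socs1* to *Socs7* and *Cish*, which encode feedback inhibitors of cytokine signalling. All 8 were measured, among 19938 genes that the array annotation names by at least 1 probe set with exactly 1 symbol. They have 12 such probe sets, and no probe set with several symbols lists any of them. For each gene the probe set was selected on its mean over the 4 arrays, the highest being taken, and the family itself was picked from its known function with a change of *Socs2* in these data already known. The calls given for its members are therefore descriptions of these arrays and not independent evidence.

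RNA of ILC87-Ik1-ER cells was hybridised to Affymetrix Mouse Gene ST 1.0 arrays, 2 for cells given 100 nM 4-hydroxytamoxifen (4OHT) and 2 for cells given its solvent, ethanol (EtOH), both for 24 h. ILC87 is a single Ikaros-null T-cell line that grew out of a thymic lymphoma of an Ikaros f/f Lck-cre+ mouse. Its strain is C57BL/6 by the labels, whereas the methods of the study describe animals of this genotype as of mixed background, C57BL/6 being 1 of its strains. Cells of both treatments carry the MigR1:Ik1-ER retrovirus, which encodes full-length Ikaros joined to the hormone-binding part of the oestrogen receptor, together with GFP, and were sorted for GFP. The ligand 4OHT brings the fusion protein into the nucleus, so that the comparison asks which genes respond within 1 day of regained Ikaros function. No array of 4OHT-treated cells without Ik1-ER was analysed here, and a response to 4OHT alone cannot be told apart.

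A cytokine that binds its receptor activates Janus kinases (JAKs), which phosphorylate the receptor and STAT transcription factors, and the STATs then switch on target genes that include SOCS genes. SOCS proteins close the loop. Their SH2 domain docks on phosphorylated receptors or kinases, and their SOCS box joins the bound protein to a ubiquitin ligase of elongins, a cullin and a RING protein. SOCS1 and SOCS3 also block JAK activity directly. In developing T cells this brake sets the response to interleukin-7, interferon-γ and related signals.

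The values are log2 expression values from RMA, with array medians of 7.11 to 7.16. Arrays of the same treatment correlated at r = 0.996 (EtOH) and 0.994 (4OHT) across probe sets, and arrays of different treatments at 0.989 to 0.990. Of 14 T-cell markers 12 were measured, and all 12 had means above the median of all probe sets, whereas 5 of 5 measured B-cell markers, 8 of 8 myeloid markers and 1 of 1 erythroid markers lay below it, as did 3 of 5 natural killer cell markers. The co-receptor genes *Cd4*, *Cd8a* and *Cd8b1* rose and *Cd3d* fell, so that the summed log2 level of the 12 T-cell markers went from 130.4 to 130.5 with EtOH to 138.3 to 138.5 with 4OHT. The summed level of the 8 myeloid markers was 50.6 to 51.0 with EtOH and 50.2 to 50.6 with 4OHT, with *Lyz2* lower and *Itgam* higher. No B-cell or natural killer cell marker was called, with summed levels of 27.9 to 28.3 and 31.7 to 32.4 with EtOH and of 28.6 to 28.8 and 33.3 to 33.7 with 4OHT. The part of these shifts in the results below was not tested. In bulk RNA, fewer cells of a type and less RNA per cell cannot be told apart. The labels do not state whether samples 1 and 2 of a treatment were grown separately. The p-values therefore cover the spread of these samples alone, which may be technical. With 2 arrays on each side, a two-sided exact permutation test has a smallest possible p of 0.33.

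After 24 h of 4OHT, 1 of the 8 genes, *Socs2*, was lower and 1, *Socs1*, was higher, while 6 did not pass the test (Benjamini-Hochberg adjusted p under 0.05 from limma over all probe sets). Among all genes, 2.99% were called lower and 1.23% higher. The 2 changes ran in opposite directions, and the median log2 fold change of the family was 0.0063, against 0.031 over all genes. On 5 of the 8 probe sets the 4OHT arrays lay entirely above or below the EtOH arrays, as they did for 56.6% of all genes. The other probe set of *Socs2* did not pass the test (log2 fold change −0.34, against −2.52 on the one that was called).

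**Figure D1:**
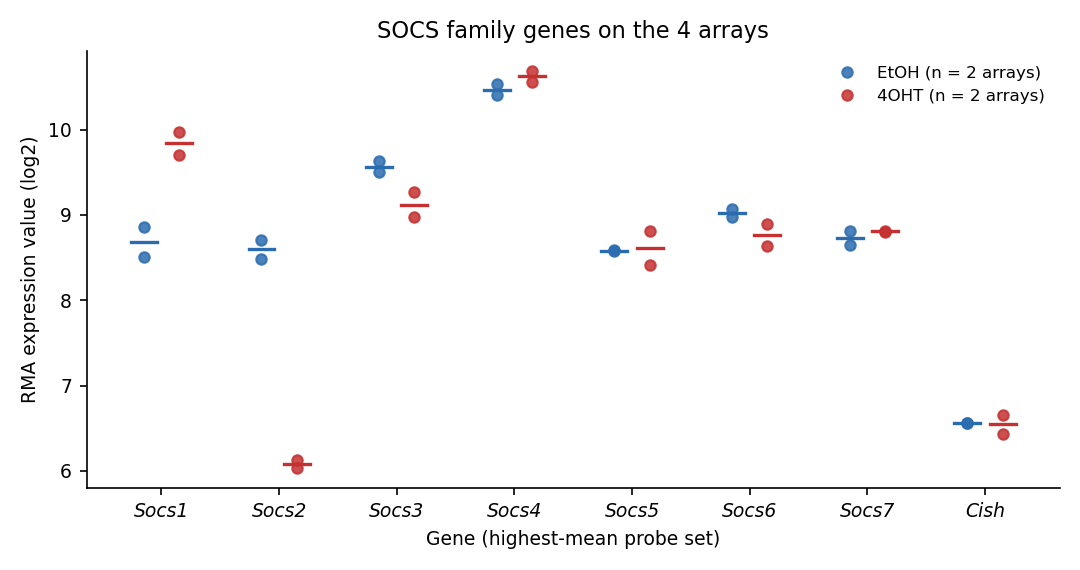
RMA expression values (log2) of the 8 SOCS family genes by array, blue for the 2 with EtOH and red for the 2 with 4OHT, with short lines at the means. Values of different genes come from different probes and are not compared in height; the 4OHT arrays of Socs2 lie at 6.03 and 6.12, below the EtOH arrays at 8.49 and 8.70, and those of Socs1 lie at 9.70 and 9.98, above 8.50 and 8.86.

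SOCS2 restrains growth hormone signalling, and mice without it overgrow. On its brighter probe set (10394674) *Socs2* had log2 values of 8.70 and 8.49 on the EtOH arrays and of 6.12 and 6.03 on the 4OHT arrays. Both 4OHT arrays were thus at least 2.37 below both EtOH arrays, and they lay below the array medians. The mean fell 5.73-fold (log2 fold change −2.52, standard error 0.10, 95% interval −2.79 to −2.25, adjusted p = 0.00630 from limma). This was the 14th lowest log2 fold change of the 19938 genes. The call was lost without EtOH replicate 1 (adjusted p = 0.108 from limma) and without EtOH replicate 2 (adjusted p = 0.122 from limma), with log2 fold changes of −2.41 and −2.62, and no probe set of the whole array was called in either case.

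The other probe set annotated to *Socs2* (10372069) gave a different picture. Its log2 values were 7.04 and 7.05 with EtOH and 6.51 and 6.90 with 4OHT. The 4OHT arrays were again below the EtOH arrays, by a gap of 0.13, but the log2 fold change was −0.34 (standard error 0.15, 95% interval −0.73 to 0.05, adjusted p = 0.321 from limma). The log2 fold changes of the probe sets differed by 2.18, and the within-array difference of their values separated the treatments by a gap of 1.82. The exact permutation test of this difference cannot go below p = 0.33.

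The probe sets of *Socs2* also differ in where their numbers lie. On this array the numbers follow the genome for most genes: of 21429 probe sets with 1 symbol that have at least 3 of their 4 nearest named neighbours on 1 chromosome, 97.2% belong to a gene of that same chromosome (RefSeq, GRCm38.p6). *Socs2* lies on chromosome 10. Probe set 10372069 is numbered among genes of chromosome 10, but 10394674, which carried the 5.73-fold decrease, is numbered among genes of chromosome 12. Of the 12 probe sets of the family, only this one and 1 of *Socs6* are numbered among another chromosome. Whether 10394674 also reads a copy of the gene was not tested, since probe sequences and positions were not used here. If the probe sets numbered among another chromosome are left out, an alternative chosen after the values were seen, no SOCS gene was called lower. The mean of both probe sets, to which 10394674 contributes most of the difference, had a log2 fold change of −1.43.

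**Figure D2:**
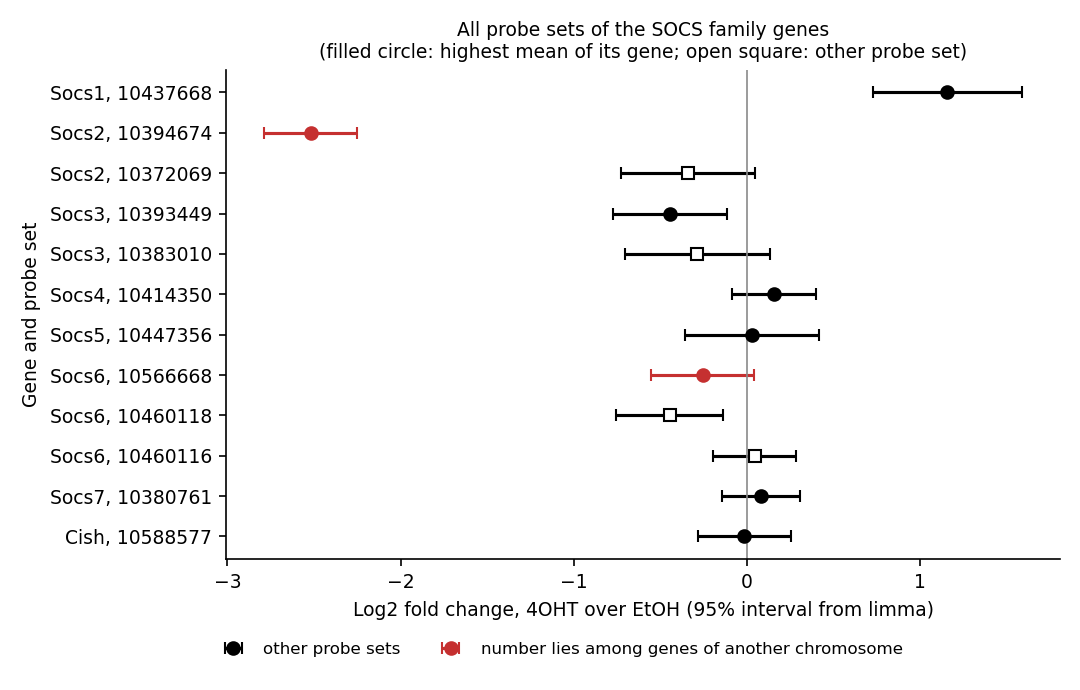
Log2 fold change (4OHT over EtOH) with its 95% interval from limma for all 12 probe sets of the SOCS family. Filled circles are the highest-mean probe set of each gene and open squares the others; red marks the probe sets numbered among genes of another chromosome, at −2.52 for Socs2 and −0.26 for Socs6, and the other probe set of Socs2 lies at −0.34.

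The genes whose 4 values were most like those of *Socs2* on probe set 10394674 were *Uaca*, *Smpdl3b*, *Dock1*, *Ctnnd1* and *Rab34*, by the Euclidean distance of log2 values centred on each gene's own mean over the 4 arrays. *Uaca* was nearest (distance 0.12) and *Rab34* was the fifth (0.32). Their log2 fold changes ran from −2.60 to −2.26, each with an adjusted p of at most 0.00704 from limma. Since these genes were picked for values close to those of *Socs2*, changes of this size follow from that choice. With 4 arrays such a match says mainly that the size of the change was alike. The paper cites a report of stem-cell genes that were poorly silenced in lymphoid progenitors of Ikaros-null mice. Of the genes in that report, it names only *Ppic*, *Rhoj* and *Socs2* as deregulated in its own study too. On these arrays *Ppic* fell 2.91-fold (log2 fold change −1.54, adjusted p = 0.00952 from limma) and *Rhoj* 2.07-fold (−1.05, adjusted p = 0.0123 from limma). *Ppic* encodes a peptidyl-prolyl isomerase. Since these genes were listed for their link to Ikaros, their direction is not independent of that choice.

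**Figure D3:**
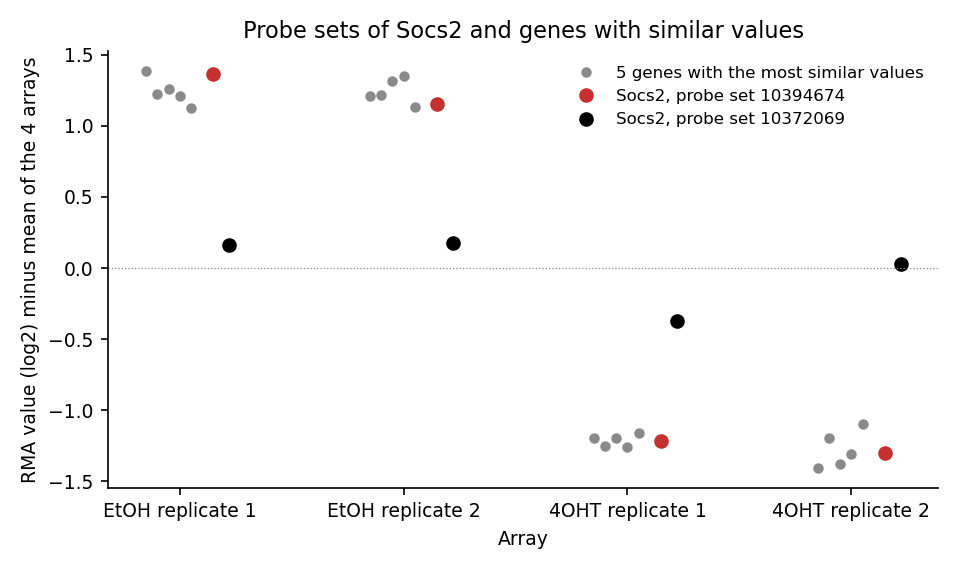
RMA values (log2) minus their own mean over the 4 arrays, for both probe sets of Socs2 and for the 5 genes with the most similar values (grey, from left to right Uaca, Smpdl3b, Dock1, Ctnnd1 and Rab34). Points are single arrays. The 5 genes were picked for their closeness to probe set 10394674 (red). The 4 uncentred values of 10372069 (black) span only 6.51 to 7.05.

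SOCS1 is the main brake on interferon-γ and on cytokines that use the common γ-chain, and thymocytes need it for a normal response to them. *Socs1* has 1 probe set. Its log2 values were 8.50 and 8.86 with EtOH and 9.70 and 9.98 with 4OHT. Both 4OHT arrays were at least 0.84 above both EtOH arrays. The mean rose 2.23-fold (log2 fold change 1.16, standard error 0.16, 95% interval 0.73 to 1.59, adjusted p = 0.0432 from limma), the 52nd highest log2 fold change of all genes. This call was close to the threshold and was lost without any 1 of the 4 arrays (adjusted p = 0.0721 to 0.183 from limma, log2 fold changes 0.98 to 1.34).

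The promoter of *Socs1*, from 250 bases before to 50 bases after its start, is shown because it is the member that rose and has a sequence in the RefSeq table (GRCm38.p6, chr16:10785487-10785786, minus strand). Capitals mark TGGGAA, searched here as an Ikaros core motif and found once, from base 82 of the 300.
Socs1 promoter: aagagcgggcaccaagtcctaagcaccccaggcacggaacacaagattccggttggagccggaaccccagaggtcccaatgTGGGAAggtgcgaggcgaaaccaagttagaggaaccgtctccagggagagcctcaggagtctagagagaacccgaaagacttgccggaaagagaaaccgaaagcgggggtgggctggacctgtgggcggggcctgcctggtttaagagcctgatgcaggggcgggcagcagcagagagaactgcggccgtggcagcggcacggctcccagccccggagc
Of all 32851 promoters in the table, 25.6% hold TGGGAA on either strand, so that 1 match is a common feature. Promoters were found for 4 of the 8 genes, and those of *Socs3*, *Socs4* and *Cish* had no match to TGGGAA. The paper found the motif AGGAA enriched under its Ikaros peaks, and AGGAA was not searched here. It also reports a high number of GGGA or GGAA motifs around peaks shared by Ikaros and the Polycomb protein Suz12. TGGGAA contains GGGA, but the shorter motifs were not searched here either. A promoter without TGGGAA may thus still hold other letters that Ikaros binds. The promoter of *Socs2* was not analysed here.

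SOCS3 binds the shared receptor subunit of the interleukin-6 family and limits STAT3 activation. On its brighter probe set *Socs3* had log2 values of 9.50 and 9.63 with EtOH and of 8.97 and 9.27 with 4OHT. The 4OHT arrays were below the EtOH arrays by a gap of 0.23. The log2 fold change was −0.45 (standard error 0.13, 95% interval −0.78 to −0.12) and did not pass the test (adjusted p = 0.168, unadjusted p = 0.0185, from limma). It passed when probe sets with 1 gene symbol alone were tested (adjusted p = 0.0176 from limma) and when the probe sets of each gene were averaged (log2 fold change −0.37, adjusted p = 0.0302 from limma). The fit of 1-symbol probe sets was more permissive, with 1868 of 21789 called lower, against 772 of 35556 in the main fit. The other probe set of *Socs3* had a log2 fold change of −0.29, which did not pass (adjusted p = 0.415 from limma), and its treatments overlapped.

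CIS, the product of *Cish*, is induced by STAT5 and dampens signals from the receptors of interleukin-2, erythropoietin and growth hormone. *Cish* had log2 values of 6.56 and 6.56 with EtOH and of 6.66 and 6.43 with 4OHT. The arrays overlapped and all lay below the array medians, and whether the gene was detected above background was not tested. The log2 fold change was −0.016 (standard error 0.10, 95% interval −0.28 to 0.25, adjusted p = 0.948 from limma). The promoter of *Cish* is shown for its STAT motifs, as the textbook STAT5 target of the family (GRCm38.p6, chr9:107296409-107296708, plus strand). Capitals mark matches to TTCNNNGAA, which start at bases 251 and 262 of the 300.
Cish promoter: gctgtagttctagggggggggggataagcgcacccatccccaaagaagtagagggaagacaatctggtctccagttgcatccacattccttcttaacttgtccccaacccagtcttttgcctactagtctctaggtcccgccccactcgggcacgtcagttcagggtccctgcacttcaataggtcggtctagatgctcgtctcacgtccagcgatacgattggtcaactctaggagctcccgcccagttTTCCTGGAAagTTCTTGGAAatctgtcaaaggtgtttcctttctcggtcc
The motif was also found once in the promoter of *Socs3* and in neither that of *Socs1* nor that of *Socs4*, and 8.30% of all promoters hold it.

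The other members showed small differences. *Socs4* and *Socs5* encode long SOCS proteins that act on the epidermal growth factor receptor. *Socs4* had log2 values of 10.40 and 10.54 with EtOH and of 10.56 and 10.69 with 4OHT, higher by a gap of 0.023 that is smaller than the spread within either treatment (log2 fold change 0.16, 95% interval −0.09 to 0.40, adjusted p = 0.441 from limma). *Socs5* had values of 8.57 and 8.59 with EtOH and of 8.41 and 8.81 with 4OHT, which overlapped (log2 fold change 0.029, 95% interval −0.36 to 0.42, adjusted p = 0.937 from limma). SOCS6 and SOCS7 bind adaptors of insulin signalling, and SOCS6 also binds the receptor Kit. *Socs7* had values of 8.65 and 8.81 with EtOH and of 8.82 and 8.80 with 4OHT, which also overlapped (log2 fold change 0.081, 95% interval −0.15 to 0.31, adjusted p = 0.667 from limma).

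*Socs6* has 3 probe sets. Its brightest (10566668) had log2 values of 9.07 and 8.98 with EtOH and of 8.63 and 8.90 with 4OHT (log2 fold change −0.26, adjusted p = 0.330 from limma). It is numbered among genes of chromosome 7, while the gene lies on chromosome 18. The next (10460118) had values of 8.67 and 8.96 with EtOH and of 8.39 and 8.34 with 4OHT (log2 fold change −0.45, adjusted p = 0.146 from limma), and on both probe sets the 4OHT arrays were below the EtOH arrays. The third, at log2 values of 4.11 to 4.28, was near the lowest values on the arrays. Unlike those of *Socs2*, the 2 brighter probe sets did not differ in their response beyond the spread between arrays (difference 0.19, with overlapping within-array differences).

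The machinery that SOCS proteins use showed no called gene. Of 7 genes listed as partners of the SOCS box ligase, none was lower or higher (0 at an unadjusted p under 0.05 from limma). The log2 fold changes were −0.18 for *Rnf7*, a RING protein, and −0.15 for *Cul5*, a cullin. Of 26 other genes with a SOCS box none was called (3 at an unadjusted p under 0.05 from limma), with values of 0.45 for *Wsb2* and −0.29 for *Asb13*. Their medians were −0.066 and 0.041. Of 13 other inhibitors of JAK–STAT signalling none was called (5 at an unadjusted p under 0.05 from limma). The share of all genes at that unadjusted threshold was not computed. The counts at it, here and for the lists below, are therefore not read as results about these genes. *Ptprc*, which encodes the phosphatase CD45, differed by 0.50 on the log2 scale (adjusted p = 0.0606 from limma) and *Usp18*, an inhibitor of interferon signalling, by −0.49 (adjusted p = 0.113 from limma). *Ptprc* passed the test with a minimum mean log2 value of 6 (adjusted p = 0.0418), with an intensity trend (0.0346) and among probe sets with 1 gene symbol (0.00247), all from limma, and *Usp18* and *Wsb2* in the last of these (0.00697 and 0.0201 from limma). Of the 13 inhibitors, 2 were lower and 2 higher among probe sets with 1 gene symbol. That fit called more of the whole array, 1868 of 21789 probe sets lower and 1070 higher. In the main fit these were 772 and 351 of 35556. With an intensity trend 0 of the 13 inhibitors were lower and 2 higher, beside 840 and 388 of all probe sets.

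Kinases and STATs upstream of the family were likewise without a call. The 3 measured JAK genes had log2 fold changes of −0.069 to 0.13 (0 at an unadjusted p under 0.05 from limma). Of 6 STAT genes none was called (4 at an unadjusted p under 0.05 from limma, a share not computed for all genes), with a median of −0.21. *Stat5a* and *Stat5b*, which carry interleukin-2 and interleukin-7 signals in T cells, had log2 fold changes of −0.48 and −0.35 (adjusted p = 0.0569 and 0.0982 from limma). For each, the 4OHT arrays lay below the EtOH arrays. *Stat5a* passed with a minimum mean log2 value of 6 (adjusted p = 0.0397), with an intensity trend (0.0426) and among probe sets with 1 gene symbol (0.00262), all from limma, and *Stat5b* in the last of these (0.0158 from limma). The fit of 1-symbol probe sets was more permissive, with 1868 of 21789 called lower, against 772 of 35556 in the main fit.

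Some receptors upstream of the family were called. Of 32 receptors that signal through JAKs, 5 were higher and 1 was lower, against 1.23% and 2.99% of all genes. The other 26 did not pass the test, and the median of the 32 was 0.12. Among probe sets with 1 gene symbol alone 9 of these receptors were higher and 6 lower. That fit called more of the whole array, 1070 of 21789 probe sets higher and 1868 lower. In the main fit these were 351 and 772 of 35556. Without 4OHT replicate 1 only *Il10rb* kept its call, as 1 receptor higher (adjusted p = 0.0466 from limma), and without any 1 of the other arrays no receptor did. *Il21r*, a receptor of the common γ-chain group, rose 2.37-fold (log2 fold change 1.25, adjusted p = 0.0240 from limma). *Il5ra* rose 2.18-fold (1.12, adjusted p = 0.0156 from limma) and *Il10rb* 2.11-fold (1.07, adjusted p = 0.0138 from limma). *Ifngr1*, the ligand-binding chain of the interferon-γ receptor, which SOCS1 limits, rose 1.83-fold (0.87, adjusted p = 0.0268 from limma), and the fifth was *Il6ra* (0.58, adjusted p = 0.0347 from limma). *Il15ra* fell (−0.62, adjusted p = 0.0392 from limma). *Ghr*, the growth hormone receptor on which SOCS2 acts, was dim, at mean log2 values of 6.43 with EtOH and 5.94 with 4OHT (log2 fold change −0.48, adjusted p = 0.132 from limma), and *Il7r* differed by −0.44 on the log2 scale (adjusted p = 0.0730 from limma); *Ghr*, *Il7r* and the fifth and sixth called receptors were named after their values were seen. Of 26 ligand genes none was called (2 at an unadjusted p under 0.05 from limma). *Il10* had the largest difference of these, with log2 values of 6.85 and 7.52 with EtOH and of 6.11 and 5.94 with 4OHT (log2 fold change −1.16, adjusted p = 0.0875 from limma; 8.97e-04 among probe sets with 1 gene symbol). Of the ligands 23 of 26 had means below the median of all probe sets.

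**Figure D4:**
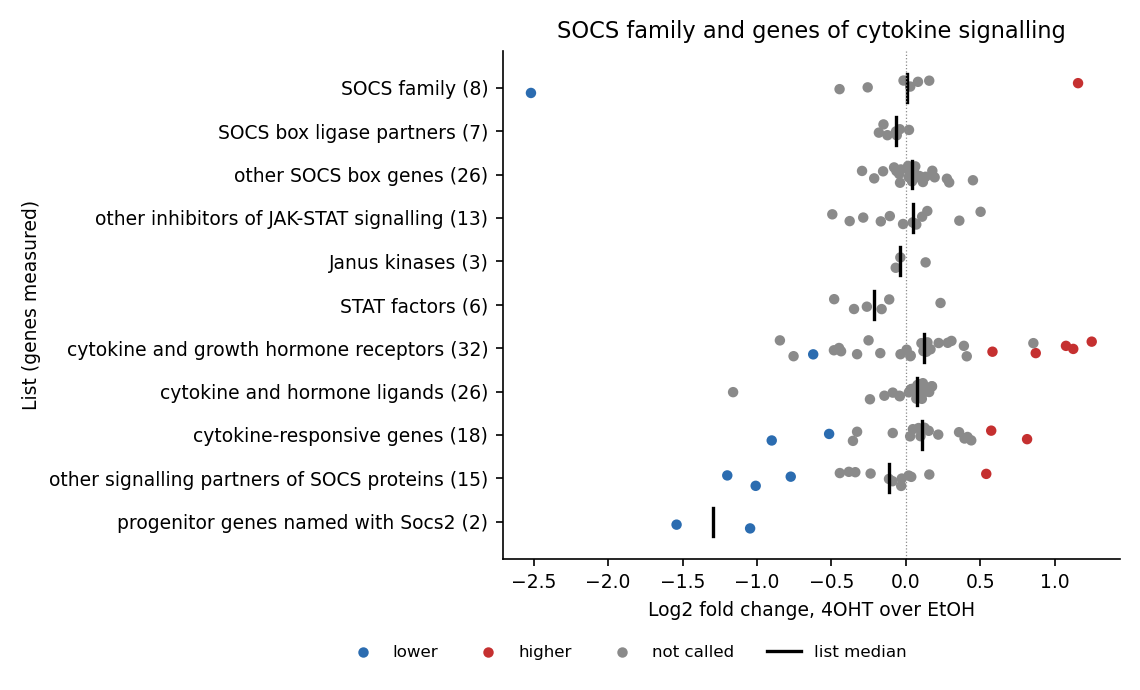
Log2 fold change, as 4OHT over EtOH, for each measured gene of the SOCS family and of 10 lists around it, with the number of genes in brackets. Each point is a gene, blue if lower, red if higher and grey if not called at an adjusted p under 0.05 from limma, and black lines are medians, from −1.29 for the progenitor genes to 0.12 for the receptors.

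Among 18 genes listed as responsive to cytokines, 2 were lower and 2 higher, against 2.99% and 1.23% of all genes. The other 14 did not pass, and the median log2 fold change of the list was 0.11. *Ccnd2*, which encodes cyclin D2, fell 1.87-fold (log2 fold change −0.90, adjusted p = 0.0266 from limma), and *Myc* fell 1.43-fold (−0.52, adjusted p = 0.0477 from limma). *Bcl2l1*, an anti-apoptotic gene, rose 1.76-fold (0.81, adjusted p = 0.0365 from limma) and *Ccnd3*, which encodes cyclin D3, 1.49-fold (0.57, adjusted p = 0.0333 from limma). The list thus had no common direction. No gene of the list was called without any 1 of the 4 arrays, and *Myc* also missed the threshold after a second quantile normalization (adjusted p = 0.0545 from limma).

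Of 15 other signalling partners of SOCS proteins 3 were lower and 1 was higher, against 2.99% and 1.23% of all genes. The other 11 did not pass, and the median log2 fold change of the list was −0.11. The genes that fell were *Igf1r*, the receptor of insulin-like growth factor (log2 fold change −1.20, adjusted p = 0.0172 from limma), *Irs1*, an adaptor of the insulin and insulin-like growth factor receptors (−1.01, adjusted p = 0.0141 from limma), and *Egfr* (−0.77, adjusted p = 0.0396 from limma). *Irs2*, the related adaptor, rose (0.54, adjusted p = 0.0405 from limma) but missed the threshold with equal array medians, with an intensity trend and when normalized again (adjusted p = 0.0510, 0.0506 and 0.0515 from limma). *Irs1* and *Irs2*, like *Socs2* and *Socs1*, were thus called in opposite directions. Of these 4 genes only *Irs1* kept its call without 4OHT replicate 1 (adjusted p = 0.0471 from limma), and none did without 4OHT replicate 2. Without either EtOH array no gene of any of the lists was called, since no probe set of the array was.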

How the data were processed

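Expression was measured on 4 arrays, 2 per treatment, from 150 ng of total RNA each. The authors deposited 35556 probe sets as log2 values. Per the submitters' processing notes these were made by RMA in Affymetrix Expression Console 1.1. RMA subtracts background, equalises the distributions of the arrays and combines the probes of a set, so that a shift shared by most genes cannot be seen and dim differences are compressed. No genome build for the probe sets is named in the sources used here. Treatments come from the sample titles.

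The treatments were compared by limma 3.58.1 under R 4.3.3 (lmFit, eBayes, two-sided, no filter, no block), with Benjamini-Hochberg adjustment over all probe sets and a call at an adjusted p under 0.05. There were 2 residual and 2.66 prior degrees of freedom. The scripts were tested on simulated data. Symbols were updated by Entrez number through RefSeq (GRCm38.p6) for 21698 of 21789 probe sets with 1 symbol; 1621 with several and 12146 with none stayed in the fit unnamed. The highest-mean probe set stood for a gene.

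All members were named, on every probe set, with up to 4 called genes per list of largest change, or 2 where none was called, and the 5 genes nearest to *Socs2*. Members and lists were chosen with earlier results of these data known. Listed genes such as *Jak3*, *Il2rg*, *Il11ra1*, *Prlr*, *Thpo*, *Cdkn1a*, *Gbp2* and *Ptk2* had no probe set with that symbol alone and were not analysed here, nor were protein sequences. Alternatives were equal array medians, a replicate block, a filter at a mean log2 value of 6, a second quantile normalization, 1-symbol probe sets alone, averaged probe sets, an intensity trend, thresholds of 0.01 and 0.1, and each array left out in turn. Array number limits the precision, and there are no detection calls.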

Additional observations from a re-analysis of the deposited data

How the results depend on the processing

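Over all probe sets 772 were lower and 351 higher, and 1 SOCS gene was called in each direction. With the sample number as a replicate block 32 probe sets were lower and 10 higher, *Socs2* stayed called (adjusted p = 0.0384 from limma) and *Socs1* did not (0.0591), so that 0 members were higher. In that fit 0 genes of the 10 lists around the family were called. Same-numbered arrays did not deviate together (correlation of deviations −0.13), and pairing them crosswise, chosen after seeing the data, gave 552 probe sets lower, 226 higher and 1 member lower and 0 higher. Among probe sets with 1 gene symbol 1868 were lower and 1070 higher, with 2 members lower, as with averaged probe sets (2 lower). At an adjusted p under 0.01, 74 probe sets were lower and 21 higher, with 0 members higher, and under 0.1 these were 1528 and 788. Leaving out probe sets numbered among another chromosome, chosen after seeing the data, left 0 members lower. Leaving out 1 array gave 0 to 360 probe sets lower, 0 to 94 higher, 0 to 1 members lower and 0 members higher, with 0 of all when either EtOH array was left out. *Socs5* then ran from −0.17 to 0.23 and *Cish* from −0.13 to 0.098 on the log2 scale, so that these 2 genes changed sign without 4OHT replicate 2. *Socs2* kept its sign in every alternative, between −2.62 and −2.41 on its brighter probe set, as did *Socs1* between 0.98 and 1.34. The causes of these differences were not tested. Equal array medians moved the median log2 fold change of all probe sets by −0.022.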
